A study of Homo sapiens with 24 samples.

Results

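The genes described here encode the nuclear part of the mitochondrial respiratory chain: subunits of complexes I to IV and the factors that assemble them. They are every probe whose symbol starts with NDUF, UQCR, SDH or COX and a digit, together with 5 assembly factors added by name, LYRM7, BCS1L, TTC19, SURF1 and SCO1, and no PTGS probe was among them. The set was drawn up with earlier results of these arrays known. This gave 141 of 47228 probes, which stand for 96 genes, and 85 of these genes were bright enough to be tested among 11029 genes in all. The cells were HB2, an immortalized human mammary epithelial line grown with serum, insulin and hydrocortisone. They received 50 nM siRNA, aimed at exon 1, at exon 7 or at exon 9 of the long noncoding RNA gene GNG12-AS1 or of the control kind, and RNA was taken 48 h later. All 4 groups thus received an siRNA and the same transfection reagent, and each group held 6 biological replicates, read on 24 Illumina bead arrays. Each siRNA group stands for 1 target exon, and GNG12-AS1 itself was not measured here. By the sample titles every replicate number is 1 experiment with an array of each group.

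The respiratory chain passes electrons from NADH and succinate to oxygen. Complex I (NADH dehydrogenase) and complex II (succinate dehydrogenase) feed ubiquinone, complex III hands the electrons to cytochrome c, and complex IV (cytochrome c oxidase) reduces oxygen. Complexes I, III and IV pump protons, and the gradient they build drives ATP synthase. The complexes do not assemble by themselves: dedicated factors insert haem, copper, flavin and iron-sulphur centres and hold half-built modules. Many of them leave before the enzyme works. Inherited faults in many of these factors cause mitochondrial disease.

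Most of these genes differed little between the groups. Within 0.2 of control on the log2 scale lay 83.5%, 95.3% and 89.4% of them under exons 1, 7 and 9. Over all genes tested these shares were 69.6%, 80.9% and 77%. LYRM7, by the brighter of its 2 probes, and COX10 under the exon 1 siRNA differed most from control. The second LYRM7 probe gave -0.20 there. Values are log2 intensities, differences are on the log2 scale with the standard error of a model fitted with limma over all arrays (n = 6 per group), and a gene is called when its Benjamini-Hochberg adjusted p over all 11029 genes was below 0.05. Under the exon 1 siRNA 11 of the 85 genes were called (12.9%), 4 higher and 7 lower than control, against 10.0% of all genes tested (5.18% higher and 4.86% lower). The exon 9 siRNA gave 4 calls (4.71%), all lower than control, against 3.63% of all genes (1.96% higher and 1.67% lower). Under the exon 7 siRNA limma called 0 of the 85, against 1.92% of all genes (1.14% higher and 0.780% lower), and 4 had an unadjusted p below 0.05. With the replicate number as a block, 2 passed under exon 7, LYRM7 and NDUFAF1 (adjusted p = 0.0470 and 0.0168). These shares of calls are close to those of all genes, so the count does not set the respiratory chain apart. By kind of gene, 6 of 24 assembly factors and 4 of 55 structural subunits were called under exon 1, and 4 of 24 and 0 of 55 under exon 9. The 5 genes added by name are all assembly factors, and without them the counts were 5 of 19 under exon 1 and 2 of 19 under exon 9. The 3 comparisons share their control arrays. In an extract of whole cells, fewer cells of a type and less RNA per cell cannot be told apart. The summed log2 level of the 4 tested fibroblast markers, of 8 listed, ran from 30.9 to 32 under exon 1, from 29.3 to 30.4 under exon 7, from 29.4 to 30.9 under exon 9 and from 29.9 to 30.9 in control. The defining markers PDGFRA and PDGFRB were above background on 0 arrays, and the part of the other fibroblast markers in the exon 1 differences was not tested.

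**Figure D1:**
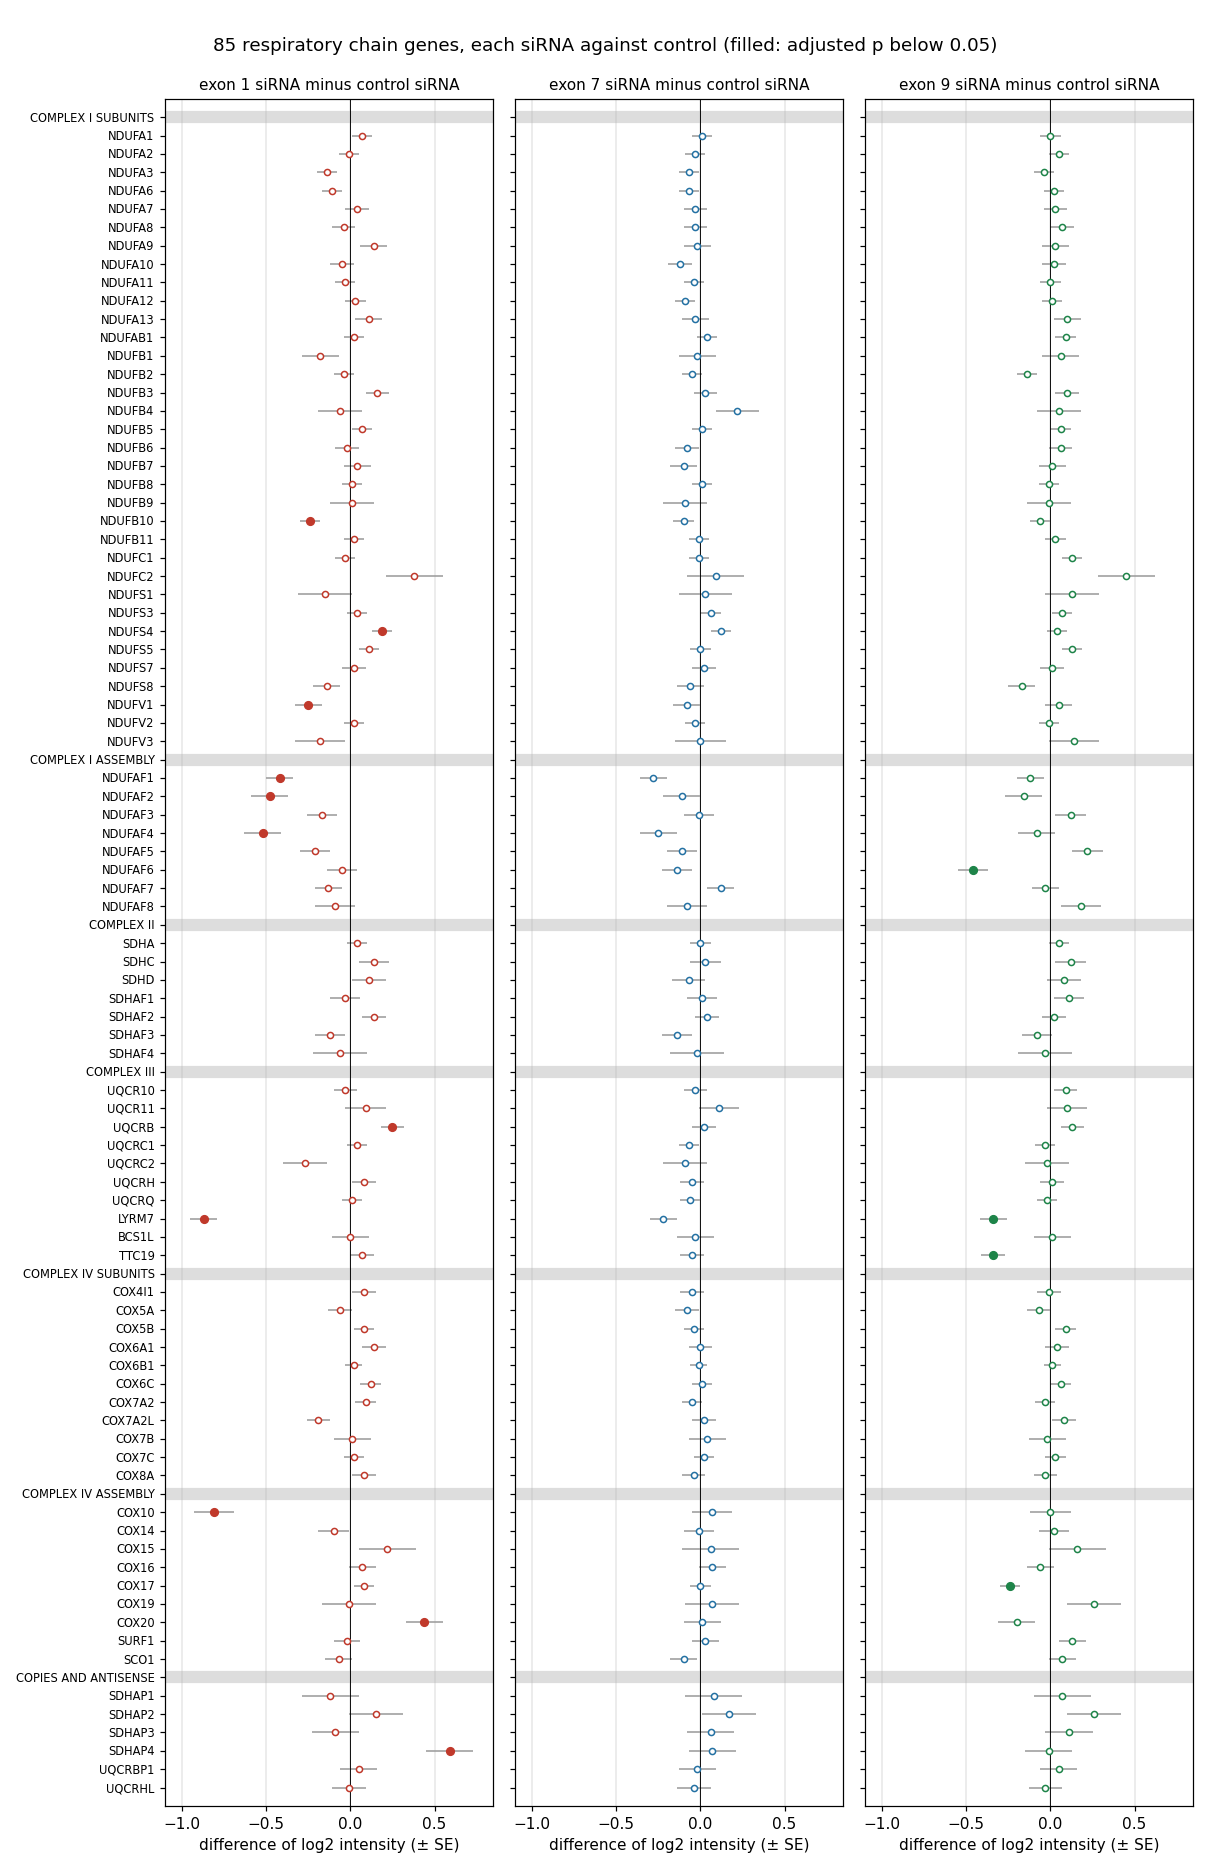
Difference in log2 intensity (x axis, ± SE) of the 85 tested respiratory chain genes (y axis, by complex) for each siRNA against control, with filled points for an adjusted p below 0.05. Most points lie within 0.2 of zero, while LYRM7 at -0.87 and COX10 at -0.81 stand farthest to the left under the exon 1 siRNA. The brightest probe of each gene is drawn, and the second LYRM7 probe gave -0.20.

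The promoters of the 5 assembly factors that were lower under the exon 1 siRNA are shown because these genes carry the results below. Each line gives the 250 bases before the annotated gene start (RefSeq, GRCh38.p14), read 5′ to 3′ on the gene's strand, with the core site of ETS factors, CCGGAAG on either strand, in capitals. LYRM7 lies at chr5:131170694-131170943 on the plus strand, COX10 at chr17:14069254-14069503 on the plus strand and NDUFAF1 at chr15:41402497-41402746 on the minus strand. NDUFAF2 lies at chr5:60944955-60945204 on the plus strand and NDUFAF4 at chr6:96897892-96898141 on the minus strand.
LYRM7: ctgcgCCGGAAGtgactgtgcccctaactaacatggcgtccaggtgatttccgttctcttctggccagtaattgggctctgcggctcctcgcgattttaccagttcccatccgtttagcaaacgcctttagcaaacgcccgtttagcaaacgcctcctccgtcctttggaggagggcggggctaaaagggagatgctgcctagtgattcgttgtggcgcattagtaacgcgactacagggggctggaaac
COX10: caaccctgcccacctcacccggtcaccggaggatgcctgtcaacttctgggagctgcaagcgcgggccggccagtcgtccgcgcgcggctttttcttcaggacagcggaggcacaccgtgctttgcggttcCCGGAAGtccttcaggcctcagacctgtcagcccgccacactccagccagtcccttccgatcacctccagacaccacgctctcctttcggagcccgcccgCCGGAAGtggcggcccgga
NDUFAF1: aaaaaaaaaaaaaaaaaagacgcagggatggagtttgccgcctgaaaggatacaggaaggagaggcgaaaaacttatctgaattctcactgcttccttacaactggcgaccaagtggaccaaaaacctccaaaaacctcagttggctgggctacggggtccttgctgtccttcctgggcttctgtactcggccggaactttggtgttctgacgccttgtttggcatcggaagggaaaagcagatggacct
NDUFAF2: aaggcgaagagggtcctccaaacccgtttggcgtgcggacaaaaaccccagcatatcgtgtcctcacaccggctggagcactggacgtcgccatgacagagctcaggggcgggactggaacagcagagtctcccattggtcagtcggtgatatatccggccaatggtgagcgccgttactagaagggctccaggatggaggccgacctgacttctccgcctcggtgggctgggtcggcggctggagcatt
NDUFAF4: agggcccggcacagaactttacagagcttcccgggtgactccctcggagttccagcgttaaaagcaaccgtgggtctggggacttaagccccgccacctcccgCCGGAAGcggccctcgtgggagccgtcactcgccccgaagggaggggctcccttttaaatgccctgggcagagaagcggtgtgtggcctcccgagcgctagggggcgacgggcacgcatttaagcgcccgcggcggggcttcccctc
The ETS core stood once in the LYRM7 and NDUFAF4 windows and at 2 places in that of COX10, while the NDUFAF1 and NDUFAF2 windows held 0 copies.

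Over the 79 respiratory chain genes with a promoter in the RefSeq table, 25.3% held the ETS core within the 250 bases, against 8.82% of all 27305 promoters. The site of nuclear respiratory factor 1, NRF1, stood in 17.7% of these genes and in 5.53% of all promoters. The YY1 site AAGATGGC stood in 0 of 79 and in 1.37% of all promoters, a share too low for a count of 0 to tell anything. All 3 motifs were searched on both strands, but not in the bases after the gene start. The 27305 promoters include those of genes not tested on these arrays, so these shares do not compare respiratory chain genes with other expressed genes. Among the 24 assembly factors in that table, the untested COX18 included, 29.2% held the ETS core and 16.7% the NRF1 site, and among 54 subunits 24.1% and 18.5%. These matches describe letters in a window and were not set against the expression differences.

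Complex I takes electrons from NADH at its flavin, passes them through iron-sulphur centres to ubiquinone, and moves protons through its membrane arm. Of its 36 subunit genes 34 were tested. Under the exon 1 siRNA 1 was higher and 2 lower than control (8.82% called, against 10.0% of all genes). The median difference of the 34 was 0.01 under exon 1, -0.02 under exon 7 and 0.03 under exon 9. The medians of all genes were 0.01, 0.00 and 0.00. NDUFA5 (above background on 5 arrays) and NDUFS6 (0 arrays) were too dim to test. NDUFC2 and NDUFB4 were tested but were above background on only some arrays. The numbers of such arrays were 2, 1 and 3 under exons 1, 7 and 9 and 0 in control for NDUFC2, and 3, 4 and 2 under exons 1, 7 and 9 and 3 in control for NDUFB4.

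NDUFB10, an accessory subunit of the membrane arm, had 12.49, 12.62 and 12.83 as its lowest, median and highest log2 intensity on the exon 1 arrays, against 12.75, 12.87 and 12.97 on the control arrays. The groups overlapped only at their edges. It fell by 0.24 ± 0.06 (adjusted p = 0.0156), and was lower in all 6 experiments. The call was lost without replicate 1, 3, 4 or 6 of all groups (adjusted p = 0.0984, 0.0557, 0.0637 and 0.0521). Median scaling (0.0956) and a fit on the compared groups alone (0.0724) also ended it. NDUFV1, the subunit that binds NADH and the flavin, had 11.10, 11.38 and 11.55 under exon 1, against 11.53, 11.59 and 11.64 in control. Only the highest exon 1 array reached the control range. Its difference was -0.25 ± 0.08 (adjusted p = 0.0388). The call was lost without exon 1 replicate 1 or 2 (adjusted p = 0.0958 and 0.114) and without control replicate 1, 2, 3, 4 or 5 (0.0516 to 0.0766). It was also lost without replicate 1, 2, 3, 4 or 5 of all groups (0.0715 to 0.185) and with median scaling (0.119). Array weights (0.0649), no detection filter (0.0589) and a fit on the compared groups alone (0.0787) ended it too. NDUFS4, an accessory subunit of the NADH-oxidising module that is often mutated in Leigh syndrome, had 12.43, 12.51 and 12.64 under exon 1, against 12.22, 12.35 and 12.39 in control. The groups did not overlap. The difference was 0.19 ± 0.06 (adjusted p = 0.0354). Its call was lost without exon 1 replicate 1, 4 or 5 (adjusted p = 0.0935, 0.0610 and 0.0675) and without control replicate 1, 4 or 6 (0.0881, 0.0664 and 0.0584). Leaving out any of the 6 experiments also ended it (0.0508 to 0.175), as did median scaling (0.2) and a fit on the compared groups alone (0.108).

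Under the other siRNAs limma called 0 of 34 complex I subunits, where 1 (exon 7) and 5 (exon 9) had an unadjusted p below 0.05. Nearest to a call were NDUFS4 under exon 7 (0.12, adjusted p = 0.426) and NDUFC2 under exon 9 (0.45 ± 0.17, adjusted p = 0.175). NDUFC2 is an accessory subunit between the arms of the complex. With control arrays all below background, its difference is not a measured fold. NDUFS3, a core subunit, differed from control by 0.04, 0.06 and 0.07 under exons 1, 7 and 9 (adjusted p = 0.705, 0.782 and 0.641). Its genomic neighbour PTPMT1, a mitochondrial phosphatase needed for cardiolipin, was higher under all 3 siRNAs (1.25, 1.39 and 1.37), against the same control arrays. Between siRNAs PTPMT1 differed by -0.14 (exon 1 against exon 7), -0.13 (exon 1 against exon 9) and 0.01 (exon 7 against exon 9). None of these was called, and the part of the control siRNA was not tested. KBTBD4, another gene of this neighbourhood, differed by 0.11, 0.20 and 0.18 and was not called.

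The complex I assembly factors help to join the modules of the enzyme. The set holds the 8 with an NDUFAF symbol. All 8 were tested, and all 8 lay below control under the exon 1 siRNA, with a median difference of -0.19 beside 0.01 for all genes. For 12 further complex I assembly factors, which fall outside the rule, that median was -0.05. Against the same control arrays, 7 of the 8 NDUFAF genes also lay below control under exon 7 (median -0.11). Under exon 9, 5 of the 8 did (median -0.05), and the median of all genes was 0.00 under both. Under exon 1 limma called 3 of the 8 NDUFAF genes, all lower: NDUFAF1, NDUFAF2 and NDUFAF4. Over all genes tested 10.0% were called under exon 1, and 4.86% were lower. NDUFAF1 belongs to the membrane-bound assembly complex that builds the proton-pumping arm. It had 8.97, 9.33 and 9.49 under exon 1, against 9.63, 9.71 and 9.81 in control, and the groups did not overlap. It fell by 0.42 ± 0.08 (adjusted p = 0.000989). Values under exon 7 were 9.14, 9.48 and 9.54, and here too all 6 arrays lay below the lowest control array. That difference, -0.28 ± 0.08, did not pass (adjusted p = 0.0697), but passed with the replicate number as a block (adjusted p = 0.0168). Exon 9 arrays had 9.51, 9.60 and 9.66 and overlapped control (-0.12, adjusted p = 0.541).

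NDUFAF2, which binds a late intermediate of complex I, had 11.01, 11.66 and 11.80 under exon 1, against 11.92, 12.09 and 12.14 in control. No exon 1 array reached the control range. The fall was 0.48 ± 0.11, or 1.40-fold (adjusted p = 0.00511). NDUFAF4 works with NDUFAF3 on the module that binds ubiquinone. It had 8.11, 8.77 and 8.92 under exon 1, against 9.02, 9.23 and 9.28 in control, again with no overlap. It fell by 0.52 ± 0.11, or 1.44-fold (adjusted p = 0.00225), and its second probe gave -0.70. In each of the 6 experiments NDUFAF1, NDUFAF2 and NDUFAF4 were lower on the exon 1 array than on the control array of the same experiment. All 3 were still called with any single array or any experiment left out. Their differences without replicate 2, the experiment with the lowest values, were -0.36, -0.40 and -0.44 (adjusted p = 0.00108, 0.00204 and 0.000496). Within the first and the last 12 array columns of the deposited table they were -0.27 and -0.56 for NDUFAF1, -0.41 and -0.55 for NDUFAF2, and -0.39 and -0.65 for NDUFAF4. Limma called none of these 6 values from 12 arrays alone (adjusted p = 0.0617 to 0.166).

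NDUFAF6, which acts early on the membrane arm, was the complex I assembly factor called under the exon 9 siRNA. It had 8.38, 8.70 and 8.92 there, against 8.98, 9.15 and 9.25 in control, without overlap. It fell by 0.46 ± 0.09 (adjusted p = 0.00400; -0.52 and -0.41 within the column sets), and was lower in all 6 experiments. Under exon 1 and exon 7 its differences were -0.05 and -0.14 (adjusted p = 0.807 and 0.631). NDUFAF5, a hydroxylase of complex I subunit NDUFS7, pointed in different directions: -0.21 under exon 1, -0.11 under exon 7 and 0.22 under exon 9 (adjusted p = 0.136, 0.707 and 0.191). With the replicate block it passed under exon 1 (adjusted p = 0.0104) and exon 9 (0.0126). NDUFAF3, the methyltransferase NDUFAF7 and NDUFAF8, a partner of NDUFAF5, had differences from -0.17 to 0.18 over the 3 siRNAs and none was called.

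**Figure D2:**
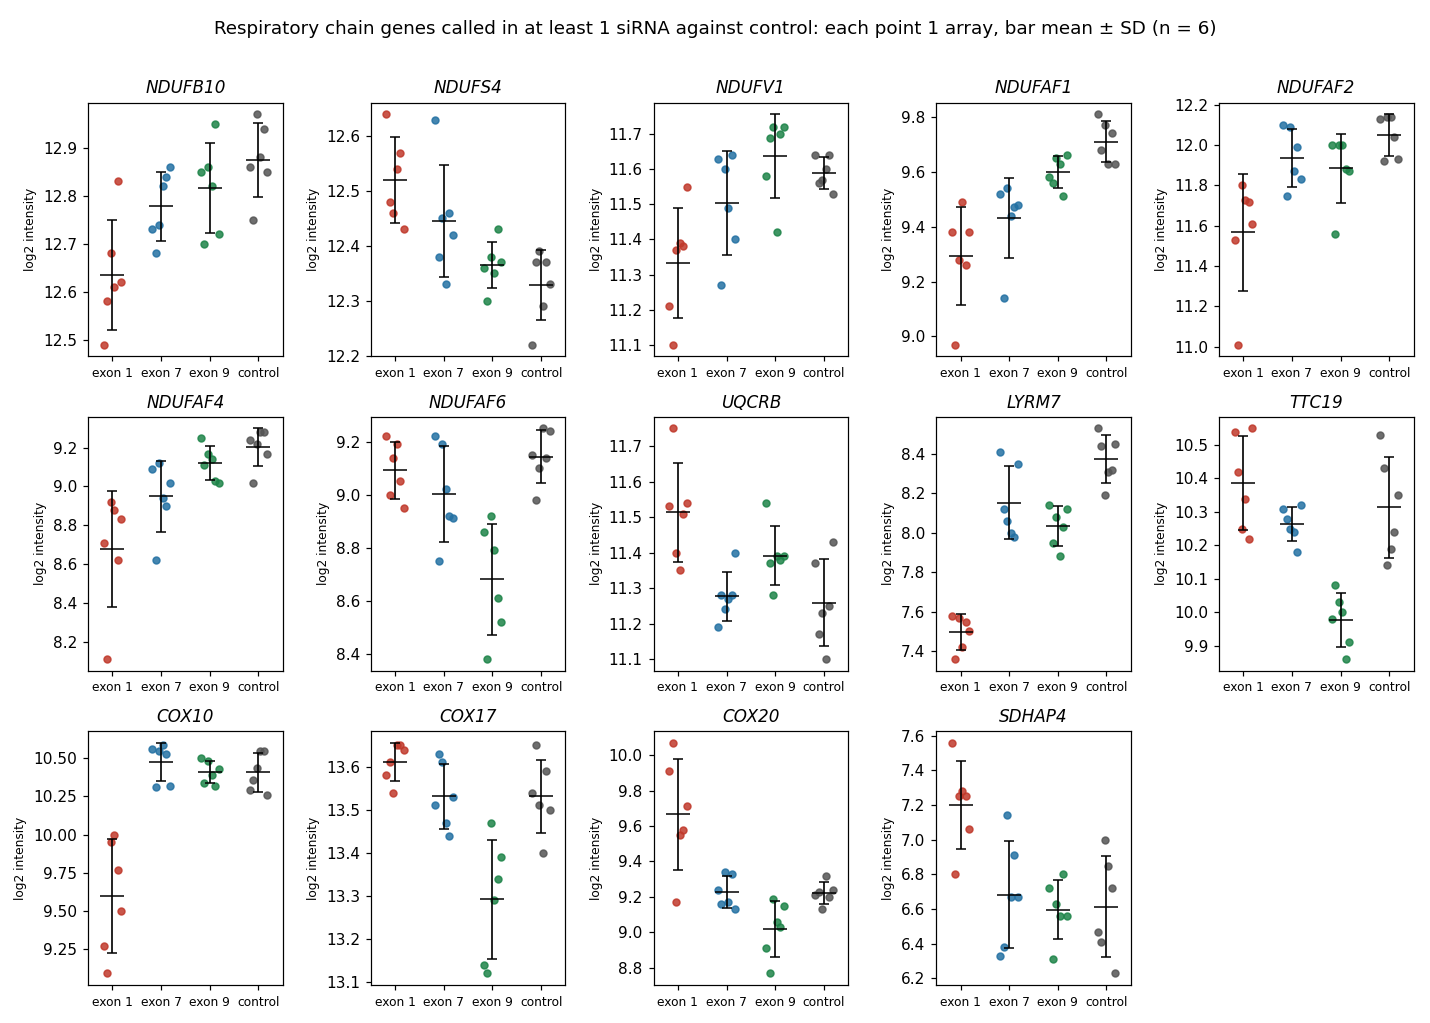
Log2 intensity (y axes, each with its own range) of the 14 genes called under at least 1 siRNA against control, with 1 point per array and the mean ± SD of 6 arrays, for the exon 1, exon 7, exon 9 and control siRNAs from left to right. LYRM7 and COX10 are lower on all exon 1 arrays than on any control array, and NDUFAF6 and TTC19 on all exon 9 arrays.

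The 8 complex I assembly factors of the set also moved together between experiments. On each array the mean of their 8 differences from the control means was taken. It ran from -0.55 to -0.14 under exon 1, from -0.29 to 0.02 under exon 7, from -0.20 to 0.10 under exon 9 and from -0.18 to 0.07 on the control arrays themselves. Replicate 2 was the lowest of the 6 in every group, and 6 of the 8 genes had their lowest experiment mean there. Without replicate 2 the ranges were -0.30 to -0.14 under exon 1, -0.16 to 0.02 under exon 7, -0.10 to 0.10 under exon 9 and -0.06 to 0.07 in control. The same mean over the 34 complex I subunits ran from -0.04 to 0.04 under exon 1, from -0.06 to 0.02 under exon 7, from 0.02 to 0.06 under exon 9 and from -0.05 to 0.02 in control. All 6 exon 9 arrays were thus above zero.

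With group means removed, the mean pairwise correlation across the 24 arrays was 0.48 among the 8 complex I assembly factors, 0.05 among the 34 complex I subunits and 0.01 among all genes. It was 0.28 without replicate 2 (20 arrays), and 0.09 once the experiment means were removed as well. The arrays of an experiment share whatever that experiment had in common, so this is a description with no test. NDUFAF2 had experiment means of 11.94, 11.56, 12.01, 11.94, 11.91 and 11.81 in replicates 1 to 6 (mean of 4 arrays each). Replicate 2 stands below the other 5. NDUFAF4 had 9.07, 8.71, 9.11, 9.06, 8.96 and 9.01, with the same low experiment.

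**Figure D3:**
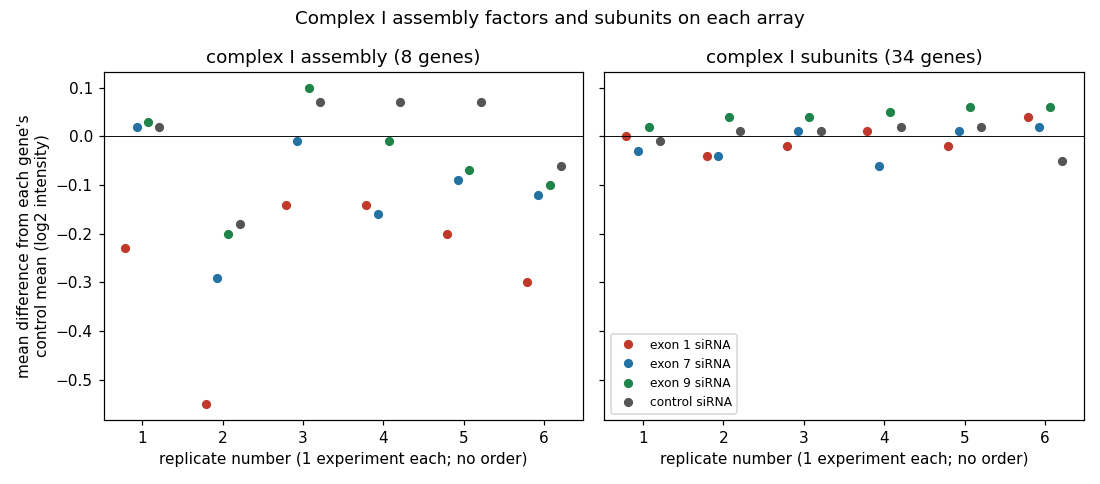
Mean difference from each gene's control mean (y axes, log2 intensity) of the 8 complex I assembly factors (left) and the 34 complex I subunits (right) on every array, by replicate number (x axes). The assembly factors are lowest in replicate 2 in every group, at -0.55 under the exon 1 siRNA and -0.18 in control, while the subunits lie between -0.06 and 0.06.

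An F-test for differences between experiments, in a model with group and replicate number, called 13 of the 85 genes (15.3%), against 27.2% of all genes tested. Here 9 of 24 assembly factors and 2 of 55 structural subunits were called. The complex I assembly factors gave 5 of 8 calls (NDUFAF2, NDUFAF3, NDUFAF4, NDUFAF5 and NDUFAF6) and the complex I subunits 0 of 34. The smallest p-values belonged to SDHAP2, COX15, COX19, NDUFAF5 and NDUFAF2 (adjusted p = 0.00153, 0.00178, 0.00454, 0.00512 and 0.00784). COX15, which makes haem A, had experiment means between 9.03 (replicate 6) and 9.67 (replicate 3). COX19, a copper-handling factor, was highest in replicate 2 at 8.15 and its means spanned 0.65, so it ran opposite to the complex I factors in that experiment. With replicate 2 of all groups left out, 2 of the 85 genes were called, and 1560 in place of 3000 over all genes.

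**Figure D4:**
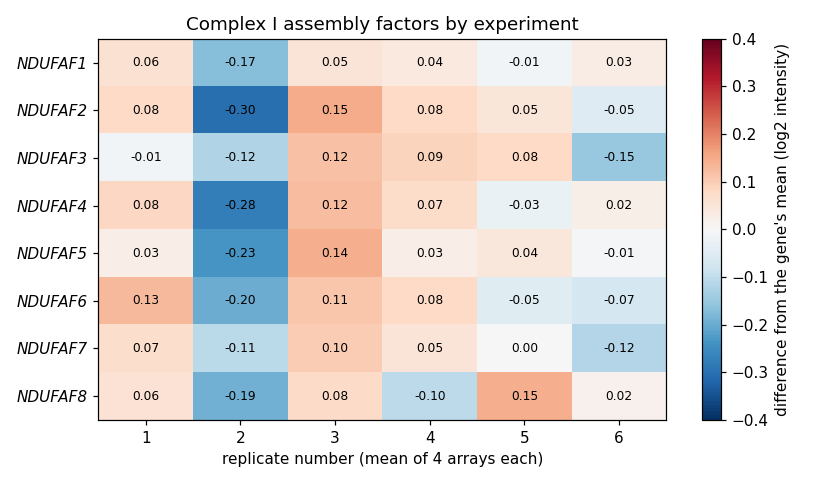
Difference of each experiment's mean (4 arrays) from the gene's overall mean (colour and printed values, log2 intensity) for the 8 complex I assembly factors (y axis) in replicates 1 to 6 (x axis). All 8 genes are below their mean in replicate 2, where the experiment means of NDUFAF2 and NDUFAF4 were 11.56 and 8.71.

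Complex II oxidises succinate and belongs to the citric acid cycle as well. The set holds 7 of its genes, the subunits SDHA, SDHC and SDHD and 4 assembly factors, while the iron-sulphur subunit SDHB was not analysed here. All 7 were tested, and limma called 0 under each siRNA, with 0 at an unadjusted p below 0.05. The differences lay between -0.14 and 0.14. SDHA, the flavin subunit, differed by 0.04, 0.00 and 0.05 under exons 1, 7 and 9. SDHC, a membrane anchor, differed by 0.14, 0.03 and 0.12. Nearest to a call were SDHAF2, which attaches the flavin, under exon 1 (0.14, adjusted p = 0.230), SDHAF3 under exon 7 (-0.14, adjusted p = 0.652) and SDHC under exon 9 (0.12, adjusted p = 0.605). SDHAF4 was above background on 4 to 5 arrays of each group.

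SDHAP4, one of the pseudogene copies of SDHA, had 6.80, 7.25 and 7.56 under exon 1, against 6.23, 6.60 and 7.00 in control. The groups overlapped. The difference was 0.59 ± 0.14 (adjusted p = 0.00983; 0.64 and 0.53 within the column sets), and 6 arrays under exon 1 and 5 in control were above background. The call was lost without replicate 1 of all groups (adjusted p = 0.0707). The other tested copies, SDHAP1, SDHAP2, SDHAP3, UQCRBP1 and UQCRHL, were not called. Probes for such copies may also bind transcripts of the parent gene, and the deposited values do not separate them.

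Complex III carries electrons from ubiquinol to cytochrome c through the Rieske iron-sulphur protein. LYRM7 holds the Rieske protein in the matrix before its insertion. By its brighter probe it had the largest difference of the 85 genes under the exon 1 siRNA, but by the mean of its probes (-0.54) it came after COX10 (-0.81, 1 probe). LYRM7 had 7.36, 7.53 and 7.58 under exon 1, 7.98, 8.09 and 8.41 under exon 7 and 7.88, 8.05 and 8.14 under exon 9, against 8.19, 8.38 and 8.53 in control. Exon 1 arrays lay far below all others, exon 9 arrays just below the control range, and exon 7 arrays partly within it. The fall was 0.87 ± 0.08 under exon 1, or 1.83-fold (adjusted p = 1.43e-07), and 0.34 ± 0.08 under exon 9, or 1.26-fold (adjusted p = 0.0162). Under exon 7 the difference was -0.22 ± 0.08 (adjusted p = 0.217, and 0.0470 with the replicate block). In all 6 experiments LYRM7 was lower than control under each siRNA, with differences from -1.08 to -0.61 under exon 1, -0.34 to -0.10 under exon 7 and -0.49 to -0.11 under exon 9.

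The second LYRM7 probe gave smaller differences, -0.20 under exon 1 (limma, unadjusted p = 0.164), -0.18 under exon 7 (0.212) and -0.03 under exon 9 (0.855), so the 2 probes disagree in size. With the mean of both probes the exon 1 difference was still called, while that under exon 9 was not called (adjusted p = 0.357). The exon 9 call was also lost with median scaling (adjusted p = 0.0782) and without replicate 2, 4, 5 or 6 of all groups (0.0540 to 0.0856).

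TTC19, which clears fragments of the Rieske protein from the finished complex, had 9.86, 9.99 and 10.08 under exon 9, against 10.14, 10.30 and 10.53 in control. The groups did not overlap. It fell by 0.34 ± 0.07, or 1.26-fold (adjusted p = 0.00713), and was lower in all 6 experiments (-0.28 and -0.39 within the column sets). The call was lost with median scaling (adjusted p = 0.0851) and without replicate 1 of all groups (0.0573). TTC19 differed by 0.07 under exon 1 and -0.05 under exon 7 (adjusted p = 0.610 and 0.878). BCS1L, the ATPase that inserts the Rieske protein, differed by 0.00, -0.03 and 0.01 under exons 1, 7 and 9.

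Of the 7 complex III subunits 1 was called, UQCRB under exon 1 (14.3%, against 10.0% of all genes). UQCRB, a small subunit near the ubiquinone site, had 11.35, 11.52 and 11.75 under exon 1, against 11.10, 11.24 and 11.43 in control. The groups overlapped. The difference was 0.25 ± 0.07 (adjusted p = 0.0219), the second probe gave -0.02, and the mean of the probes was not called (adjusted p = 0.512). Leaving out exon 1 replicate 2 (adjusted p = 0.0687) or control replicate 4 (0.0584) also ended the call. So did leaving out replicate 2 or 5 of all groups (0.139 and 0.0778), median scaling (0.0745) and a fit on the compared groups alone (0.0983). The core subunit UQCRC2 was at -0.27 under exon 1 and was not called (adjusted p = 0.204).

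Complex IV holds haem A and copper, and its nuclear subunits surround a core that the mitochondrial genome encodes. Of 17 subunit genes 11 were tested, and limma called 0 under each siRNA, with 1, 0 and 0 at an unadjusted p below 0.05 under exons 1, 7 and 9. The forms known from heart and skeletal muscle, lung or testis (COX4I2, COX6A2, COX7A1, COX7B2 and COX8C) were above background on 0 arrays and COX6B2 on 2. Their partners COX4I1, COX6A1, COX6B1, COX7A2, COX7B and COX8A were tested. COX4I1 averaged 14.38, 14.24 and 14.29 under exons 1, 7 and 9, and 14.30 in control. Nearest to a call was COX7A2L, which joins complexes III and IV into supercomplexes, at -0.19 ± 0.07 under exon 1 (adjusted p = 0.0745, and 0.00937 with the replicate block). Under the other siRNAs these were COX5A (-0.08, adjusted p = 0.752) for exon 7 and COX5B (0.09, adjusted p = 0.587) for exon 9.

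Of 11 complex IV assembly factors 9 were tested, and 2 were called under exon 1 (22.2%), 0 under exon 7 and 1 under exon 9 (11.1%). Over all genes tested these shares were 10.0%, 1.92% and 3.63%. COX10 makes haem O, the precursor of haem A. It had 9.09, 9.63 and 10.00 under exon 1, 10.31, 10.54 and 10.59 under exon 7 and 10.32, 10.41 and 10.50 under exon 9, against 10.26, 10.40 and 10.55 in control. All exon 1 arrays lay below every other array, while the other 3 groups overlapped. It fell by 0.81 ± 0.12 under exon 1, or 1.75-fold (adjusted p = 5.85e-05), with single experiments from -1.26 to -0.49 and -0.90 and -0.72 within the column sets. Under exon 7 and exon 9 the differences were 0.07 and 0.00 (adjusted p = 0.911 and 0.996). COX15, which acts on haem O after COX10, differed by 0.22, 0.06 and 0.16 and was not called.

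COX20, a chaperone of the mitochondrially encoded subunit COX2, had 9.17, 9.64 and 10.07 under exon 1, against 9.13, 9.22 and 9.32 in control. All but the lowest exon 1 array lay above the control range. The difference was 0.44 ± 0.11, or 1.36-fold (adjusted p = 0.00754), and ran from 0.05 to 0.85 over the experiments. Without replicate 1 of all groups the call was lost (adjusted p = 0.0653). COX17, the copper chaperone of the intermembrane space, had 13.12, 13.31 and 13.47 under exon 9, against 13.40, 13.53 and 13.65 in control. The groups overlapped. Its difference of -0.24 ± 0.06 (adjusted p = 0.0307) lost its call without exon 9 replicate 1, 2 or 4 (adjusted p = 0.0879, 0.0807 and 0.0539), without control replicate 1, 2 or 5 (0.0623, 0.0823 and 0.0667) and with median scaling (0.272). SURF1, a factor for early steps of complex IV assembly, differed by -0.02, 0.03 and 0.13 under exons 1, 7 and 9. SCO1, which passes copper to subunit COX2, differed by -0.07, -0.10 and 0.07. COX11 and COX18 were above background on 0 arrays and were not tested.

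Groups that did not overlap were counted over all 85 genes. Under exon 1 there were 6 such genes, where 4.46% of all genes did not overlap with control: NDUFS4, NDUFAF1, NDUFAF2, NDUFAF4, LYRM7 and COX10. Exon 9 gave 3 (NDUFAF6, LYRM7 and TTC19; 2.94% of all genes) and exon 7 gave 1 (NDUFAF1; 1.86%).

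The siRNAs were also compared with each other, which tests whether a change seen under one differed from that under another. Between exon 1 and exon 7 limma called 8 of the 85 genes (11.5% of all genes tested, 5.99% higher and 5.54% lower), 3 higher and 5 lower under exon 1. LYRM7 (-0.66 ± 0.08, adjusted p = 1.17e-05) and COX10 (-0.88 ± 0.12, adjusted p = 2.75e-05) were lower under exon 1 without overlap. COX20 (0.44 ± 0.11, adjusted p = 0.00764) and SDHAP4 (0.52 ± 0.14, adjusted p = 0.0203) were higher. NDUFAF2 was lower (-0.37 ± 0.11, adjusted p = 0.0268). The remaining calls were UQCRB (0.24, adjusted p = 0.0306), COX7A2L (-0.21, 0.0438) and NDUFAF7 (-0.25, 0.0457). Single arrays decided 5 of the 8 calls. SDHAP4 was lost without exon 1 replicate 1 or exon 7 replicate 1 or 2 (adjusted p = 0.0522 to 0.0604), and NDUFAF2 without exon 1 replicate 1 or 2 or exon 7 replicate 1 or 3 (0.0535 to 0.0670). UQCRB was lost without exon 1 replicate 1, 2 or 6 or exon 7 replicate 1, 3 or 4 (0.0513 to 0.0925). COX7A2L was lost without exon 1 replicate 1, 2 or 4 or exon 7 replicate 1, 3, 4, 5 or 6 (0.0726 to 0.118), and NDUFAF7 without any of the 12 arrays but exon 1 replicate 3 (0.0528 to 0.114). The count was 3 without exon 1 replicate 1 or exon 7 replicate 1, 4 without exon 1 replicate 2 or exon 7 replicate 3, and 5 without exon 7 replicate 4. The second LYRM7 probe gave -0.02 here and that of UQCRB 0.38. The 2 other NDUFAF7 probes gave -0.29 and 0.07, so 1 of them pointed the other way.

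Between exon 1 and exon 9 limma called 13 genes (8.34% of all genes tested, 4.29% higher and 4.05% lower), 5 higher and 8 lower under exon 1. Complex I assembly factors made up 5 of them. NDUFAF5 (-0.43 ± 0.09, adjusted p = 0.00220), NDUFAF4 (-0.44 ± 0.11, 0.0103), NDUFAF1 (-0.30 ± 0.08, 0.0168) and NDUFAF3 (-0.29 ± 0.09, 0.0426) were lower under exon 1, and NDUFAF6 was higher (0.41 ± 0.09, 0.00633). The second probe of NDUFAF5 gave -0.42. NDUFAF5 passed against control under both of these siRNAs in the fit with the replicate block and under neither without it. COX10 (-0.81 ± 0.12), LYRM7 (-0.54 ± 0.08) and COX7A2L (-0.27 ± 0.07, adjusted p = 0.0118) were lower and COX20 (0.65 ± 0.11), TTC19 (0.41 ± 0.07), COX17 (0.32 ± 0.06) and SDHAP4 (0.60 ± 0.14) higher under exon 1. The second LYRM7 probe gave -0.17 (limma, unadjusted p = 0.222). NDUFV1 differed by -0.30 ± 0.08 (adjusted p = 0.0146). NDUFAF3 lost its call without any of 8 arrays, namely exon 1 replicate 1, 2 or 6 (adjusted p = 0.0762, 0.124 and 0.101) and exon 9 replicate 1, 2, 3, 4 or 5 (0.0504 to 0.0837).

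Between exon 7 and exon 9 limma called 3 genes (4.20% of all genes tested, 2.22% higher and 1.98% lower). TTC19 (0.28 ± 0.07, adjusted p = 0.0232) and COX17 (0.24 ± 0.06, 0.0297) were higher and NDUFAF5 (-0.33 ± 0.09, 0.0247) lower under exon 7. Each lost its call when single arrays were left out. TTC19 did so without exon 7 replicate 1 (adjusted p = 0.0502) or exon 9 replicate 5 or 6 (0.0579 and 0.0536). NDUFAF5 did so without exon 7 replicate 2 or 6 (0.0696 and 0.0504) or exon 9 replicate 1, 3 or 5 (0.0640, 0.0584 and 0.0516). COX17 did so without exon 7 replicate 2, 3 or 6 (0.0773, 0.0659 and 0.0505) or exon 9 replicate 1, 2 or 4 (0.0883, 0.0848 and 0.0523). The count was 1 without exon 7 replicate 6 or exon 9 replicate 5.

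Other genes of the pathway, whose symbols fall outside the rule, were counted from lists, beside shares over all genes of 10.0%, 1.92% and 3.63% under exons 1, 7 and 9. ATP synthase, which uses the proton gradient, had 21 genes tested and 0, 0 and 1 calls under exons 1, 7 and 9. The 1 was ATP5IF1, the inhibitor of the enzyme, at -0.26 ± 0.07. Of 24 further subunits and assembly factors of complexes III and IV with cytochrome c, exon 1 gave 2 higher and 5 lower (29.2%). UQCC1, which helps to translate and insert cytochrome b, was at -0.58 ± 0.08 under exon 1 (adjusted p = 6.05e-05) and -0.43 ± 0.08 under exon 9 (0.00337). Cytochrome c itself, CYCS, was at 0.51 ± 0.14 (adjusted p = 0.0191) and the assembly factor COA1 at -0.32 ± 0.09 under exon 1 (0.0231). Of 12 further complex I assembly factors 2 (16.7%) were lower under exon 1, ACAD9 (-0.32 ± 0.08), a partner of NDUFAF1, and COA1, which stands in both lists. The median of the 12 was -0.05, -0.06 and 0.04 under exons 1, 7 and 9. TMEM126B, also a partner of NDUFAF1, was lower under exon 7 (-0.33 ± 0.08, adjusted p = 0.0344).

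Of 19 regulators of respiratory genes and of the mitochondrial genome 4 were called under exon 1 (21.1%, against 10.0% of all genes). The DNA-binding GABPA, an ETS factor, was higher (0.47 ± 0.14), and YY1 (-0.43 ± 0.13) and the mitochondrial single-stranded DNA-binding protein SSBP1 (-0.35 ± 0.10) were lower, as was ESRRA. Limma called 0 of these 19 under exons 7 and 9, with 0 and 4 at an unadjusted p below 0.05. Of 79 proteins of the mitochondrial ribosome 9 were called under exon 1 (11.4%, against 10.0% of all genes). All 9 were lower and 0 higher, where 4.86% of all genes were lower and 5.18% higher. MRPS28 at -0.40 ± 0.07 (adjusted p = 0.000964) and MRPL12 at -0.37 ± 0.07 were among them. Under exons 7 and 9 limma called 0 of 79, with 9 and 6 at an unadjusted p below 0.05. The median of the 79 was -0.04, -0.03 and -0.01 under exons 1, 7 and 9. Of 15 enzymes of the citric acid cycle 0 were called under each siRNA, with 2, 1 and 3 at an unadjusted p below 0.05. Of 18 glycolytic genes 1 was called, ENO2 under exon 9 (-0.63 ± 0.15). Of 19 import proteins of the mitochondrial membranes 1 was called under each siRNA. This was the receptor TOMM20, at 0.77, 0.51 and 0.81 against the same control arrays.

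Before normalization the array medians ran from 7.41 to 7.74 on the log2 scale, and between 34.2% and 39.5% of an array's probes were above background. Of 8 mammary epithelial markers with a probe 7 were above background on all 24 arrays, KRT5, KRT8, EPCAM and CDH1 among them, and KRT14 on 0. The defining markers of blood cells (PTPRC and CD3E), endothelium (VWF, CDH5 and KDR), fat (PLIN1 and FABP4) and muscle (ACTA1, DES and CKM) were above background on 0 arrays. THY1 of the fibroblast list, CD14 and CD68 of the immune list and MB of the muscle list were above background on all 24 arrays. Of the 4 endothelial markers PECAM1 was bright enough to be tested, and of the 4 fat markers ADIPOQ and LEP were. These were thus above background on at least 6 arrays, though not on all 24. The part of such transcripts in the results was not tested.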

How the data were processed

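Labelled RNA of 24 cultures of HB2 cells was read on Illumina bead arrays. The deposited table is named as non-normalized, and by its values it holds log2 intensities per probe and array. The authors' second deposited table holds log2 values, again judged by the values, that share 1 distribution across arrays, and was used as an alternative. The tools behind these tables are not given in the sources consulted. All array columns were matched to samples by name, and groups and replicate numbers came from the labels.

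After conversion to linear intensities, limma's neqc removed background (version 3.58.1, R 4.3.3, offset 16; 437 olfactory receptor probes stood in for negative controls), made the distributions equal by quantiles and took log2. A probe was kept when its detection p against those probes was below 0.05 on at least 6 arrays, and a gene with several took its brightest. A model with a mean for each group (lmFit, eBayes) used all 24 arrays, and two-sided p-values were adjusted by Benjamini-Hochberg across 11029 genes, with a threshold of 0.05. The experiment test was limma's F-test of the replicate number. A simulation of exon 1 against control, with 50 genes changed at each size, served as a check of the procedure. It recovered 10% of log2 changes of 0.25 and 60% of those of 0.5. At 0.75 and 1 the shares were 88% and 100%, and 8 unchanged genes were called. The changed genes were drawn from all genes tested, and in the exon 1 group alone. These shares therefore do not give the recovery among the respiratory chain genes or under the other siRNAs. A count of 0 calls can still leave room for changes of 0.25 to 0.5. Alternatives were other scalings, filters, probe rules and models, and arrays or experiments left out. The number of arrays limits the precision.

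The titles give every replicate number 1 experiment. Same-numbered arrays deviated together in 30 of 36 pairs (correlation over 0.1; median 0.24, range 0.03 to 0.56, against -0.04 for other pairs). The fits reported leave the number out, which counts differences between experiments as noise. With it as a block, 2062, 580 and 1019 genes were called against control under exons 1, 7 and 9, in place of 1107, 212 and 400.

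The members and lists were chosen with earlier results of these data known. Named are members called in any comparison (up to 8 between siRNAs by adjusted p, more where the text gives all), LYRM7, BCS1L, TTC19, SURF1 and SCO1, the nearest to a call per role, the 5 of smallest p between experiments, paired tissue forms, dim members and up to 3 called genes per list. SDHA, SDHC, UQCRC2, COX4I1, COX15, COX19, NDUFS3 and its neighbours, KRT5 and the other markers, and other members beyond that rule were named after their values were seen. Promoters come from the RefSeq table.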

Additional observations from a re-analysis of the deposited data

Results flagged for a closer look

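The members named by rule were checked for an array far from the other 5 of its group. Of 120 sets of 6 arrays (30 genes in 4 groups) 7 held one by Dixon's test at the 95% level; chance alone flags about 0.05 of such sets. The number flagged is thus close to that share. Of the 7 arrays 6 were replicate 2 of their group, most of them for complex I assembly factors, whose low values there are described above. The genes checked include those of smallest p between experiments, so this is no separate result. NDUFAF2 read 11.01 on exon 1 replicate 2, with the nearest array at 11.53, and 11.56 on exon 9 replicate 2, with the nearest at 11.87. NDUFAF4 read 8.11 on exon 1 replicate 2 (nearest 8.62) and NDUFAF1 9.14 on exon 7 replicate 2 (nearest 9.44). NDUFAF5 read 10.29 on exon 9 replicate 2 (nearest 10.60) and COX7A2L 11.89 on exon 7 replicate 2 (nearest 12.10). The exception was SDHC at 10.84 on exon 1 replicate 3 (nearest 11.14). Without replicate 2 of all groups NDUFAF1, NDUFAF2 and NDUFAF4 kept their calls under the exon 1 siRNA. The part of cell state or array handling in that experiment was not tested.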

How the results depend on the processing

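Counts of called genes moved with these choices, and the cause was not tested beyond the loss of arrays. Fits on the arrays of the compared groups alone gave 7 (exon 1 against control), 4 (exon 1 against exon 7) and 1 (exon 7 against exon 9). Median scaling gave 7 (exon 1 against control), 1 (exon 9 against control), 5 and 8 (exon 1 against exons 7 and 9), 1 (exon 7 against exon 9) and 6 between experiments, where no detection filter gave 8. For exon 7 against control the replicate block gave 2, and the column set block, the replicate number as a random effect and a stricter detection filter gave 1 each. The replicate block also added COX7A2L and NDUFAF5 under exon 1 and NDUFAF5 under exon 9 and changed no other call against control. Between siRNAs it added NDUFAF4, NDUFB10 and UQCRH (exon 1 against exon 7; adjusted p = 0.0234, 0.0477 and 0.0463), NDUFAF2 and NDUFB10 (exon 1 against exon 9; 0.00452 and 0.0163) and NDUFAF6 (exon 7 against exon 9; 0.00329). Chosen after seeing the data, the first and last 12 columns alone gave 2 and 1 (exon 1 against control), 0 and 0 (exon 9 against control), 2 and 1 (exon 1 against exon 7), 4 and 0 (exon 1 against exon 9) and 0 and 0 (exon 7 against exon 9). Both blocks together, also added later, gave 2 and 7 (exons 7 and 9 against control), 15 (exon 1 against exon 7) and 5 (exon 7 against exon 9). With 1 array or experiment left out, counts ran from 6 to 11 (exon 1 against control), 2 to 4 (exon 9 against control), 2 to 8 (exon 1 against exon 7), 8 to 14 (exon 1 against exon 9), 0 to 3 (exon 7 against exon 9) and 2 to 13 between experiments, and stayed at 0 for exon 7 against control. Of the named values, no called one changed sign in an alternative run, while 6 uncalled ones near zero did, 25 times in all. All 6 were of TTC19, SURF1, BCS1L or SCO1 against control (TTC19 under exon 1 was -0.04 in the last 12 columns). Rounded values were compared, so a value that rounds to zero could not be counted. BCS1L under exon 1 was such a value, at -0.03 without replicate 2 of all groups. Dim probes, such as NDUFC2 and NDUFB4, have too little signal over background for a fold.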
